A study of Mus musculus with 36 samples.

Results

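The genes described here are 10 transcripts of T cells and natural killer (NK) cells, taken by their symbols from a table of 20098 mouse genes and followed through lung libraries of lean, obese and diabetic mice. The members are Cd3e and Cd3g, Cd8a and Cd4, Eomes and Tbx21, and Gzma, Prf1, Nkg7 and Ccl5, and all 10 were found by name. RNA sequencing of poly-A RNA was carried out on the lung and the liver of wild-type male C57BL/6J mice, in 36 libraries that fell into 6 groups of 3 per tissue. Mice on a normal diet (ND, 16% of energy from fat), mice with diet-induced obesity (DIO, 45% of energy from fat for 6 weeks before and then throughout exposure) and mice with type 1 diabetes (T1D) breathed either filtered air (NDC, DIOC, T1DC) or ambient particulate matter (NDE, DIOE, T1DE) for 4 weeks. T1D was produced by 5 injections of 50 mg/kg streptozotocin, a toxin of the insulin-producing beta cells of the pancreas, in mice that ate the normal diet. Repeated low doses of streptozotocin injure beta cells directly and are also known to provoke T cell infiltration of the islets, and the ND and DIO mice did not receive the toxin. The mice were 14 weeks old when exposure began and 18 weeks old at its end. Each group had 3 libraries, named by group and replicate (NDC1 is replicate 1 of NDC), and values are in FPKM, mapped fragments scaled by transcript length and by library total.

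T cells recognise antigen through a receptor that signals through the CD3 chains, and the coreceptors CD8 and CD4 divide them into cytotoxic and helper cells. NK cells carry no such receptor, but share with cytotoxic T cells the means of killing a target cell: perforin opens the membrane, granzymes enter, and the related transcription factors T-bet (Tbx21) and Eomesodermin (Eomes) sustain this programme. In the lung both kinds of cell reside in the tissue and also circulate through its dense capillary bed. Cd3e, Cd3g, Cd8a and Cd4 thus mark mainly T cells, whereas Gzma, Prf1, Nkg7, Ccl5, Tbx21 and Eomes are shared by NK cells and cytotoxic T cells.

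On GRCm38, the genome build of the files, the RefSeq annotation places Cd8a at chr6:71373427-71379171 and Cd4 at chr6:124864693-124888247. Cd3g (chr9:44969572-44980431) and Cd3e (chr9:44998735-45009663) lie close together, and Eomes is on the same chromosome (chr9:118478186-118486132). Ccl5 (chr11:83525778-83530518) and Tbx21 (chr11:97098007-97115331) share a chromosome, while Nkg7 (chr7:43437138-43438246), Prf1 (chr10:61297751-61304684) and Gzma (chr13:113093824-113100981) stand alone.

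Promoters are shown for the 3 genes of the cytotoxic granule, since these share a motif. Each window runs from 250 bases before to 50 bases after a transcript start in RefSeq (GRCm38.p6), is read 5′ to 3′ on the strand of the gene, and has in capitals the letters ACCACA, the reverse complement of TGTGGT, the core letters bound by RUNX factors. The windows are chr13:113100932-113101231 on the minus strand for Gzma, chr7:43436888-43437187 on the plus strand for Nkg7, and chr10:61297586-61297885 on the plus strand for Prf1.
Gzma: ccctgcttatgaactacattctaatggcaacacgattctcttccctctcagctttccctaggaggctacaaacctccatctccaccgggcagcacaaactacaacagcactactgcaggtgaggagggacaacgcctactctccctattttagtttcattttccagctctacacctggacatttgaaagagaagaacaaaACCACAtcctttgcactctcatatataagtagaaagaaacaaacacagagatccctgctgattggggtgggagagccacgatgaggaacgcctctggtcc
Nkg7: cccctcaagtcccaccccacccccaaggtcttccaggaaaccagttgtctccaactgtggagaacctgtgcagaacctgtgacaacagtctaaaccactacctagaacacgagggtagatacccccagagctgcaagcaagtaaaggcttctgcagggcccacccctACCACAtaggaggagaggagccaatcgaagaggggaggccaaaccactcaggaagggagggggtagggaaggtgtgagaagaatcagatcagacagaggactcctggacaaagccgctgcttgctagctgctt
Prf1: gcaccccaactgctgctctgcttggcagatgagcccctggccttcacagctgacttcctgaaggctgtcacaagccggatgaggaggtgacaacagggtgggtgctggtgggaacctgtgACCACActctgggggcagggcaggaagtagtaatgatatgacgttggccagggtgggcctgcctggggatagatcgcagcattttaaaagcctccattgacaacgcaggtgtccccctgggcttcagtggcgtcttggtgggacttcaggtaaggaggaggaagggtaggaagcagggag
The capitals begin 50 bases upstream of the start in Gzma, 83 in Nkg7 and 130 in Prf1. Of the 10 members, 8 had a promoter in the table (Cd4 and Ccl5 did not), and TGTGGT on either strand was found in these 3 of 8, against 16.8% of 32851 promoters of the same length. The T-box letters GGTGTG, the kind of site bound by T-bet and Eomesodermin, were found in 1 of 8 (Nkg7, against 19.0%), and the ETS letters AGGAAG in 4 of 8 (Cd3e, Tbx21, Nkg7 and Prf1, against 35.4%). Neither TATAAA (13.6%) nor GGGA followed after any 4 bases by CC, a form of the NF-kB site (20.7%), was found in any of the 8, each motif being searched on both strands. In Nkg7 the searched ETS and T-box letters lay at 34 and 13 bases upstream and did not overlap the RUNX letters. These matches describe letters in a window and no measurement of binding was made.

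The depth of a library, estimated from the spacing of low FPKM values, was 16.3 to 20.9 units of 1000000 fragments in lung and 17.6 to 20.5 in liver. Tissue labels were checked against defining genes: the summed FPKM of 7 lung epithelial genes was 50910 to 84060 in every lung group and 52.4 to 104 in NDC liver. No 2 lung libraries were identical (Pearson r of 0.961 to 0.995 over genes, 153 pairs). A few lung libraries bear on the members and are named throughout. T1DE3 carried thymus transcripts, NDE1 was low in cytotoxic genes, and T1DC3 was low in T cell genes. NDE3 had the highest value of all lung libraries for Cd3e, Cd3g, Tbx21, Gzma, Nkg7 and Ccl5.

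T1DE3 stood apart before any group was compared. All 9 thymus marker genes were highest in T1DE3 among the 18 lung libraries, and their summed FPKM was 123.1 there against 1.51 and 3.0 in T1DE1 and T1DE2, 2.44 to 2.58 in NDC, 2.2 to 2.85 in NDE, 2.67 to 4.75 in DIOC, 1.7 to 6.77 in DIOE and 1.5 to 2.52 in T1DC. Rag1, which cuts the receptor genes of immature lymphocytes, was 19.7 FPKM in T1DE3 and at most 0.18 elsewhere, at 0 in 6 libraries. Dntt, which adds bases at the cut ends, was 32.3 FPKM against at most 0.4, Prss16, a protease of thymic epithelium, 34.0 against at most 0.34, and Ccl25, a chemokine of thymic epithelium, 17.4 against at most 2.15. In the same library Cd4 was 16.98 FPKM, the highest of 18, against 3.08 and 2.69 in T1DE1 and T1DE2. Cd8a (23.5 against 4.61 and 4.69), Cd3g (35.5 against 10.4 and 9.39) and Cd3e (14.1 against 4.26 and 3.97) each ranked 3 of 18. Eomes (1.37 FPKM against 1.09 and 1.45) and Prf1 (4.24 FPKM against 2.72 and 3.36) ranked 14 of 18 in T1DE3. Tbx21, Ccl5, Gzma and Nkg7 ranked 6, 7, 8 and 9. The 4 T cell surface genes were 3.42- to 5.89-fold over the mean of T1DE1 and T1DE2. For the other members this was 1.05- to 1.52-fold. The part of the thymus transcripts in the values of T1DE3 was not tested, and results that changed with T1DE3 are given with and without it.

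**Figure D1:**
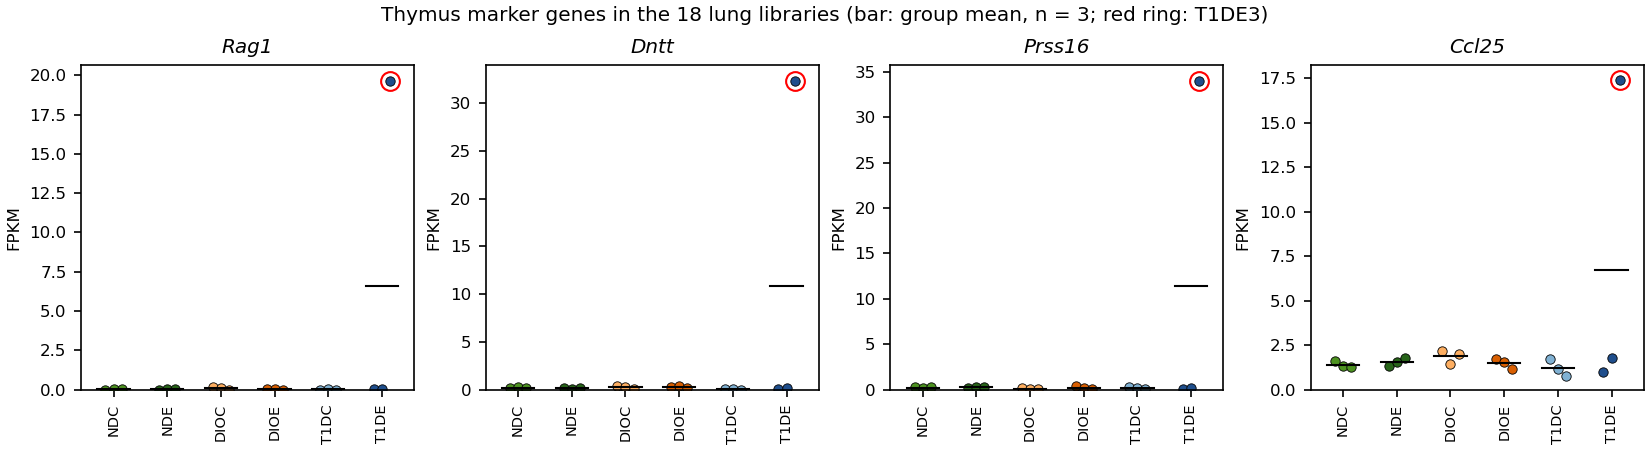
Thymus marker genes Rag1, Dntt, Prss16 and Ccl25 in the 18 lung libraries, in FPKM on a linear axis. Points are libraries, bars are group means (n = 3), and the red ring marks T1DE3, at 19.7 FPKM for Rag1 where no other library exceeded 0.18.

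All 10 members were measured well in lung and scarcely in liver. In every one of the 18 lung libraries each member was above its highest value in the 18 liver libraries. Ccl5, a chemokine that draws T cells and monocytes, was the most abundant per unit of transcript length, with 57.5 to 625 FPKM in lung and 2.67 to 20.2 in liver. Gzma, a granzyme, followed with 18.8 to 133 FPKM in lung and 0.25 to 2.33 in liver, and Eomes was the lowest with 1.02 to 4.21 in lung and 0 to 0.19 in liver. The ratio of the lung median to the liver median was 59.1 for Gzma, 30.8 for Eomes, 28.6 for Prf1, 28.2 for Cd3e, 26.4 for Cd8a, 25.3 for Nkg7, 24.2 for Ccl5, 21.7 for Cd3g, 14.5 for Tbx21 and 9.21 for Cd4. Between NDC lung and NDC liver, 10 of 10 members were called higher in lung, where "called" means that the adjusted p was under 0.05 and FPKM + 1 differed by more than 1.5-fold (limma, Benjamini-Hochberg over 14384 genes). This is read against 68% of all genes called higher in lung, with a median log2 difference of 3.42 over the members and 1.08 over all genes. The median moved to 2.85 with median-ratio scaling and to 2.23 with quantile scaling, while that of all genes moved to 0.41 and 0.08.

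**Figure D2:**
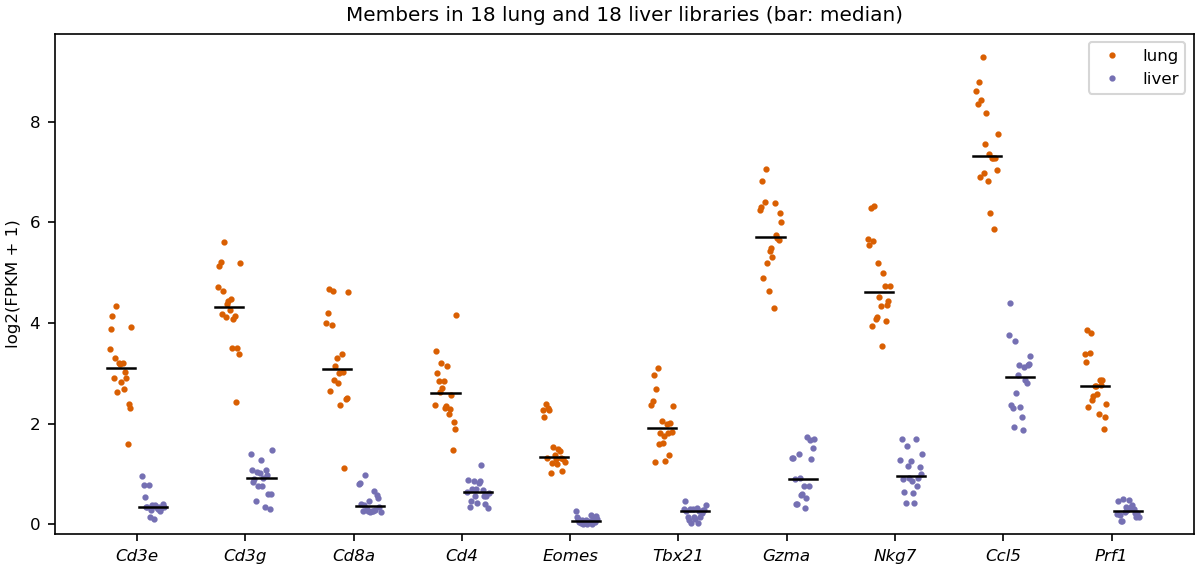
The 10 members in 18 lung (orange) and 18 liver (purple) libraries as log2(FPKM + 1). Points are libraries and bars are medians over 18; for each gene every lung point lies above every liver point, with Eomes between 0 and 0.19 FPKM in liver.

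In filtered air, lung levels were highest in mice on the normal diet. All 10 members had a lower mean in DIOC than in NDC and in T1DC than in NDC. Over the 6 ND libraries against the 6 DIO libraries, 5 ND libraries were above every DIO library for 9 of the members (all but Cd4, with 2), where 4.09% of all genes had at least 5. Against the 6 T1D libraries this held for 5 members (Eomes, Tbx21, Nkg7, Ccl5 and Prf1, against 2.86% of all genes), while 3 ND libraries were above every T1D library for Gzma, 2 for Cd3e, Cd3g and Cd8a, and 0 for Cd4. Without T1DE3 it held for 9 members (all but Gzma, against 4.77% of all genes). With all libraries in place the remaining ND library was NDE1 for each of the 9 and of the 5 members. No member had all 6 ND libraries above every DIO or every T1D library. The cut at 5 leaves room for NDE1, so the shares of all genes are a description and not a test. Under particulate matter the means in DIOE and T1DE were also below those in NDE, except for Cd4 in T1DE (7.58 against 6.53 FPKM), where T1DE3 is the high library. No member was called in any comparison within a single air, and only Eomes was called when both airs were averaged, with Cd3e, Cd3g and Prf1 called as well in T1D without T1DE3. Because these are bulk samples, fewer cells of a kind and less RNA per cell cannot be told apart.

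**Figure D3:**
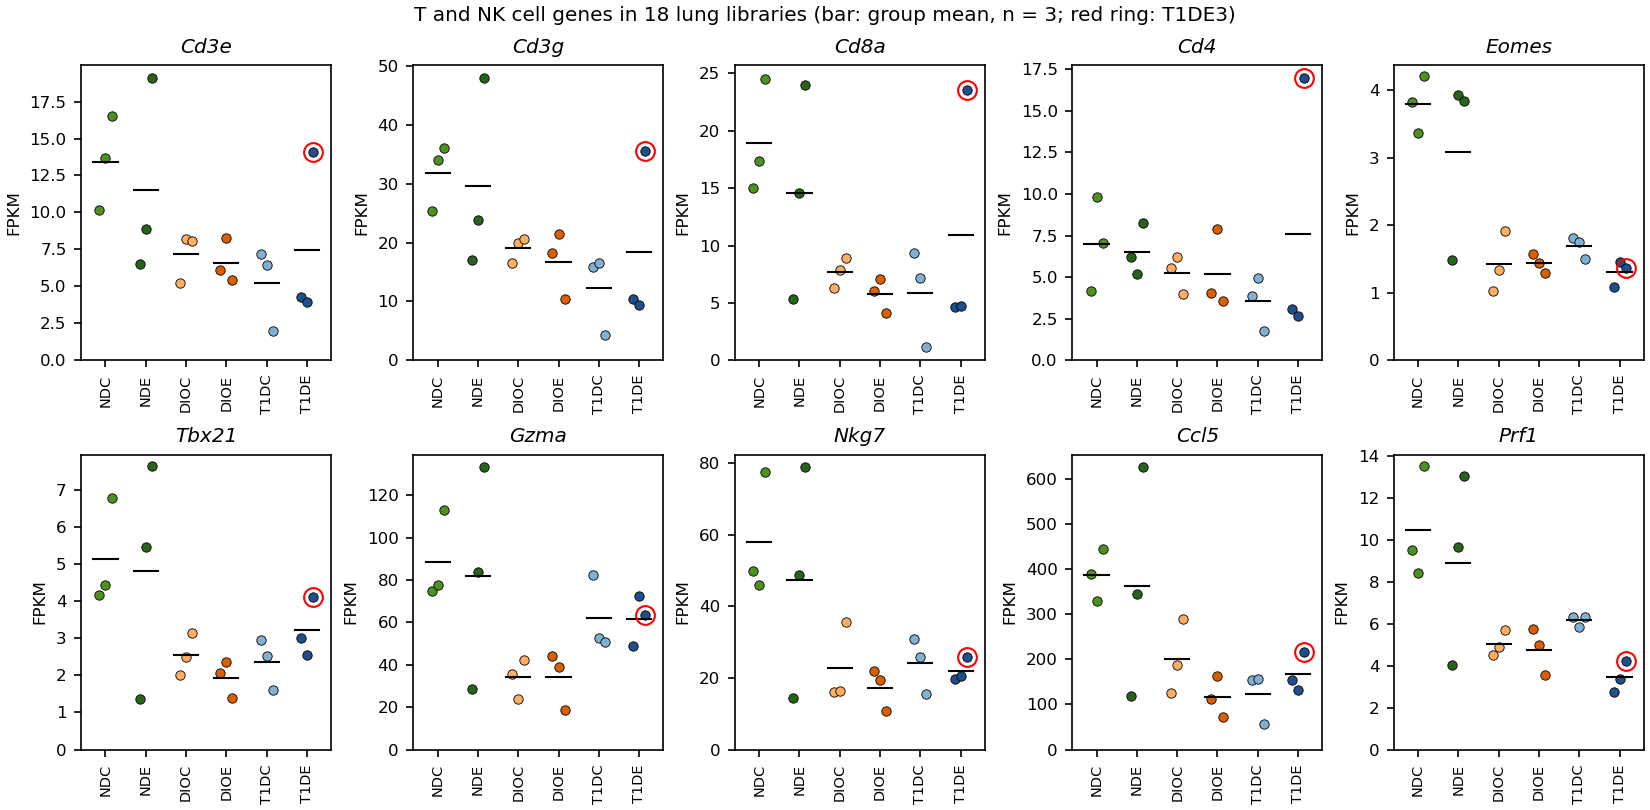
FPKM of each member in the 18 lung libraries by group, on linear axes that start at 0. Points are libraries, bars group means (n = 3), and the red ring marks T1DE3; the points of NDC lie above those of DIOC for every member but Cd4, and NDE1 is the low point of NDE for Eomes, at 1.48 FPKM.

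Eomes, the T-box factor that maintains NK cells and memory CD8 T cells, showed the clearest pattern of the 10. It read 3.82, 3.36 and 4.21 FPKM in NDC1 to NDC3 and 1.48, 3.93 and 3.84 FPKM in NDE1 to NDE3. It read 1.02, 1.33 and 1.91 FPKM in DIOC and 1.58, 1.44 and 1.30 FPKM in DIOE. In diabetic mice it read 1.81, 1.75 and 1.5 FPKM in T1DC and 1.09, 1.45 and 1.37 FPKM in T1DE. All 12 DIO and T1D libraries were between 1.02 and 1.91 FPKM, and 5 of the 6 ND libraries were at 3.36 FPKM or more, with NDE1 the exception. The group means fell in the order NDC (3.797 ± 0.43, SD, n = 3), NDE (3.08 ± 1.39), T1DC (1.69 ± 0.16), DIOE (1.44 ± 0.14), DIOC (1.42 ± 0.45) and T1DE (1.30 ± 0.19). Among the 4 lower groups the ranges overlapped in every pair but T1DC with T1DE.

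Averaged over both airs, Eomes was lower in DIO than in ND by 1.79-fold of FPKM + 1 (log2 difference -0.84 ± 0.15 SE, adjusted p = 0.0279) and lower in T1D than in ND by 1.74-fold (-0.80 ± 0.15, adjusted p = 0.0225, limma over 13973 genes). It was the only member called in these comparisons, 1 of 10 in each, where 0.0644% of all genes were called lower in DIO and 0.265% in T1D. Within filtered air the differences were -0.9996 for DIO (adjusted p = 0.102) and -0.83 for T1D (0.195), and within particulate matter -0.68 (0.686) and -0.76 (0.12), so that neither call was made in a single air. The call for DIO was lost without any of 9 of the 12 libraries compared (DIOC1, DIOC2, DIOE2, DIOE3, NDC1, NDC2, NDC3, NDE2 or NDE3, adjusted p of 0.0516 to 0.108), and that for T1D without NDC3, NDE3, T1DC3 or T1DE1 (0.0543 to 0.0656). Without NDE1 the adjusted p fell to 0.000304 for DIO and 0.000646 for T1D. T1DE3 did not carry the T1D result, which was -0.81 without it (adjusted p = 0.032).

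The other members pointed the same way with wider spread. Averaged over both airs, 8 of 10 members in DIO and 7 of 10 in T1D had an unadjusted p under 0.05 with a fold over 1.5, all lower, against 0.93% and 2.1% of all genes lower by that rule. With single libraries left out these counts ranged from 6 to 9 in both states, and without T1DE3 the T1D count was 9. The median log2 difference over the members was -0.82 in DIO and -0.92 in T1D, whereas over all genes it was -0.02 in both. Without T1DE3 the T1D median was -0.99. By state and air the median was -0.95 for DIOC against NDC, -1.06 for T1DC against NDC, -0.77 for DIOE against NDE and -0.70 for T1DE against NDE. The value for DIOE was -0.48 without NDE3 and -1.23 without NDE1. That for T1DE was -0.25 without NDE3, -0.46 without T1DE1, -0.41 without T1DE2, -0.99 without T1DE3 and -1.09 without NDE1. DIOC and T1DC are set against the same NDC libraries, and DIOE and T1DE against the same NDE libraries, so these values are not independent of each other. The members were also correlated across these libraries, as given below. A count of members, here or below, is therefore not a count of separate observations.

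**Figure D4:**
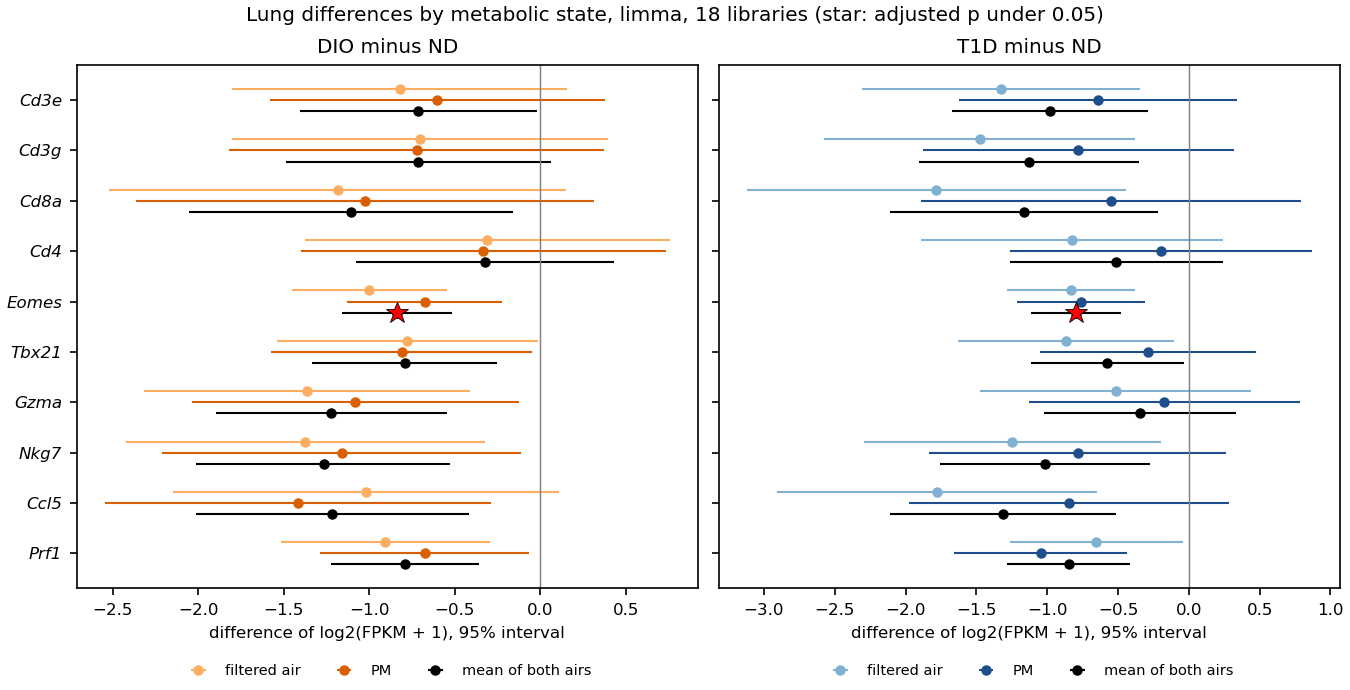
Log2 differences of FPKM + 1 for the 10 members, DIO minus ND (left) and T1D minus ND (right), within filtered air, within particulate matter and averaged over both, from limma on 18 lung libraries. Points are estimates, bars 95% intervals without adjustment, and red stars mark adjusted p under 0.05, which only Eomes reached (-0.84 and -0.80).

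Of the CD3 chains, which carry the signal of the T cell receptor, Cd3e read 10.2, 13.7 and 16.5 FPKM in NDC, 6.50, 8.90 and 19.1 in NDE, 5.20, 8.19 and 8.08 in DIOC, 6.10, 8.28 and 5.46 in DIOE, 7.17, 6.45 and 2.0 in T1DC and 4.26, 3.97 and 14.1 in T1DE. Every DIOC and T1DC library was below every NDC library, whereas the groups in particulate matter overlapped. Cd3g followed it library by library (r = 0.98 over 18 libraries), from 25.4, 34.1 and 36.01 FPKM in NDC to 16.5, 19.9 and 20.7 in DIOC and 15.9, 16.6 and 4.36 in T1DC. Averaged over both airs the log2 differences in T1D were -0.98 ± 0.32 for Cd3e (adjusted p = 0.121) and -1.13 ± 0.36 for Cd3g (0.113). Without T1DE3 these became -1.24 (0.046) and -1.42 (0.0452), both past the threshold, while in DIO they were -0.71 for both genes (0.346 and 0.413).

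Cd8a, the coreceptor of cytotoxic T cells, was, with Ccl5, the member with the largest difference between diabetic and lean mice in filtered air. It read 14.99, 17.4 and 24.6 FPKM in NDC against 9.37, 7.16 and 1.18 in T1DC and 6.27, 7.86 and 8.88 in DIOC, with no overlap. The difference of -1.78 ± 0.63 in T1DC was not called (adjusted p = 0.289), and became -1.09 without T1DC3, the lowest of all 18 libraries. Under particulate matter Cd8a read 5.31, 14.6 and 23.99 FPKM in NDE, 6.00, 7.07 and 4.16 in DIOE and 4.61, 4.69 and 23.5 in T1DE, the last value being that of T1DE3. The difference averaged over both airs was -1.11 in DIO (adjusted p = 0.272) and -1.17 in T1D (0.168), the latter -1.52 without T1DE3 (0.059).

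Cd4, the coreceptor of helper T cells, was the member that differed least between DIO and ND averaged over both airs, while in T1D Gzma differed less. It read 4.14, 9.82 and 7.04 FPKM in NDC, 6.19, 5.17 and 8.23 in NDE, 5.55, 6.19 and 3.97 in DIOC, 4.07, 7.88 and 3.54 in DIOE, 3.89, 4.96 and 1.76 in T1DC and 3.08, 2.69 and 16.98 in T1DE. Apart from T1DE3 no library exceeded 9.82 FPKM, and NDC overlapped with both DIOC and T1DC. The difference averaged over both airs was -0.32 in DIO (95% interval -1.08 to 0.43, adjusted p = 0.739) and -0.51 in T1D (-1.27 to 0.24, 0.455), and without T1DE3 the latter was -0.88 (0.071). The DIO value was -0.20 without NDC2, and the T1D value was -0.31 without T1DE2, then smaller in size than that of Gzma (-0.41). As Cd4 is also expressed by some dendritic cells, its level is not that of T cells alone.

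Among the effector genes, Prf1, which encodes the pore-forming protein perforin, came closest to a call in T1D. It read 9.48, 8.41 and 13.5 FPKM in NDC, 4.02, 9.63 and 13.01 in NDE, 4.51, 4.89 and 5.69 in DIOC, 5.73, 4.98 and 3.54 in DIOE, 6.33, 5.85 and 6.32 in T1DC and 2.72, 3.36 and 4.24 in T1DE. All 12 DIO and T1D libraries were below all 3 NDC libraries. The difference averaged over both airs was -0.85 ± 0.20 in T1D (adjusted p = 0.0519) and -0.79 ± 0.20 in DIO (0.106), and without T1DE3 the T1D difference was -0.91 (0.047). In diabetic mice every T1DE library was below every T1DC library, with a difference of -0.70 ± 0.29 that was not called (unadjusted p = 0.0267, adjusted p = 0.344).

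Gzma, the granzyme stored with perforin, was lower in every DIO library than in any T1D library. It read 74.6, 77.7 and 113 FPKM in NDC, 28.7, 84.0 and 133 in NDE, 35.9, 23.9 and 42.3 in DIOC, 44.3, 39.0 and 18.8 in DIOE, 82.3, 52.6 and 50.8 in T1DC and 49.0, 72.3 and 63.6 in T1DE. All 6 T1D libraries (49.0 FPKM or more) were above all 6 DIO libraries (44.3 or less). The share of all genes with such a separation was not counted, so how unusual it is cannot be said. The difference from ND over both airs was -1.22 ± 0.32 in DIO (adjusted p = 0.106) and -0.35 ± 0.32 in T1D (95% interval -1.02 to 0.33, 0.594). The T1D value was -0.65 without NDE1 and -0.11 without NDE3, and without NDE1 it was larger in size than that of Cd4 (-0.52). The direct comparison of T1D with DIO gave 0.85 in filtered air (95% interval -0.11 to 1.803, adjusted p = 0.643) and 0.91 in particulate matter (-0.05 to 1.86, 0.299), neither called (0.0286% and 0.544% of all genes were called there). Groups that did not overlap, with T1D higher, were found for 2 of 10 members in filtered air (Gzma and Prf1, background 8.14%) and for 2 of 10 in particulate matter (Gzma and Tbx21, background 11%).

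Nkg7, a membrane protein of cytotoxic granules, read 49.9, 46.0 and 77.5 FPKM in NDC, 15.9, 16.3 and 35.7 in DIOC and 30.7, 25.8 and 15.5 in T1DC. Ccl5 read 389.6, 329 and 444 FPKM in NDC, 125, 188 and 289 in DIOC and 154, 155 and 57.5 in T1DC. For both genes every DIOC and T1DC library was below every NDC library. Under particulate matter NDE spread from 14.3 to 78.9 FPKM for Nkg7 and from 118 to 625 for Ccl5, the low value being NDE1 in each case, and overlapped with DIOE (10.7 to 21.8 and 71.6 to 163) and T1DE (19.6 to 25.7 and 131 to 216). Averaged over both airs Nkg7 differed by -1.27 in DIO (adjusted p = 0.116) and -1.02 in T1D (0.131), and Ccl5 by -1.22 (0.144) and -1.31 (0.085). Tbx21, the T-box factor T-bet that drives interferon-gamma production, read 4.18, 4.43 and 6.80 FPKM in NDC, 2.01, 2.49 and 3.14 in DIOC and, in T1DC, 2.95, 2.52 and 1.60, differing from NDC by -0.78 (adjusted p = 0.439) and -0.87 (0.348). Under particulate matter it read 1.37, 5.47 and 7.65 FPKM in NDE, 2.07, 2.36 and 1.38 in DIOE and 3.01, 2.56 and 4.12 in T1DE, so that NDE1 was below every other library there. Averaged over both airs the Tbx21 difference from ND was -0.79 in DIO (adjusted p = 0.156) and -0.58 in T1D (0.226).

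Overlap between the groups was counted for each state and air. In DIOC against NDC 9 of 10 members (all but Cd4) were lower with no overlap between the groups, against 14.7% of all genes, and in T1DC against NDC 8 of 10 (all but Cd4 and Gzma), against 11.5%. In DIOE against NDE it was 0 of 10 (4% of all genes) and in T1DE against NDE 1 of 10 (Eomes, 8.17%). These low counts under particulate matter rested on single libraries: without NDE1, 9 of 10 members (all but Cd4) did not overlap in DIOE against NDE (10.4% of all genes) and 6 of 10 in T1DE against NDE (12%), and without T1DE3 the latter was also 6 of 10 (19%). In DIOE against NDE the count was 3 without DIOE2 and 1 without DIOE1. By an unadjusted p under 0.05 with a fold over 1.5, 5 of 10 were lower in DIOC, 8 in T1DC, 6 in DIOE and 2 in T1DE, against 1.4%, 2.09%, 0.379% and 1.27% of all genes. The count for DIOC was 3 without DIOC1, DIOC2 or NDC3, and that for T1DC was 5 without NDC3 and 2 without T1DC3. That for DIOE was 0 without NDE2 or NDE3 and 1 without DIOE3, and that for T1DE was 5 without T1DE3 and 6 without NDE1. No member was called by adjusted p in any of these 4 comparisons (0.0429%, 0.0286%, 0.0215% and 0.107% of all genes were called lower). Within NDE, NDE1 was the lowest library for every member but Cd4, and NDE3 the highest for every member but Eomes. With NDE1 left out, 6 members were called lower in DIO averaged over both airs. These were Eomes, Tbx21, Gzma, Nkg7, Ccl5 and Prf1 (adjusted p of 0.000304 to 0.0405). In T1D 5 were then called (Eomes, Tbx21, Nkg7, Ccl5 and Prf1, 0.000646 to 0.029), and in T1DE against NDE 2 (Eomes and Prf1, both 0.0148). With NDE3 left out instead, 0 members were called in each of these comparisons. No label sets NDE1 or NDE3 apart, and the values with all 18 libraries are the ones reported.

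Particulate matter itself changed no member past the threshold in any state. In lean mice all 10 members had a lower mean log2 level in NDE than in NDC, with a median difference of -0.31 that became 0.11 without NDE1, -0.67 without NDE3 and -0.15 without NDC3. In obese mice the median was -0.16, becoming 0.04 without DIOE3, the library lowest in Gzma, Nkg7 and Prf1 among the 6 DIO libraries, and -0.37 without DIOE2. In diabetic mice it was 0.35, with 7 of 10 members higher in T1DE than in T1DC, -0.13 without T1DE3 and 0.55 without T1DC1 or T1DE2. Called genes made up 0% of all genes in the lean and the obese comparison and 0.165% in the diabetic one, where 2 of 10 members (Eomes and Prf1) were lower with no overlap (7.96% of all genes). By an unadjusted p under 0.05 with a fold over 1.5, 0 members were lower in lean (0.215% of all genes) and in obese mice (0.107%), and in diabetic mice 1, Prf1 (1.09%).

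The sign in diabetic mice depended on T1DE3 and on T1DC3, without which the median was -0.08. With all libraries, the differences of T1DE from T1DC were 0.37 for Cd3e, 0.48 for Cd3g, 0.70 for Cd8a and 0.58 for Cd4. Without T1DE3 they were -0.15, -0.10, -0.01 and -0.15 (adjusted p of 0.909 to 0.996). The effect of particulate matter in T1D minus that in ND was 1.23 for Cd8a with T1DE3 (95% interval -0.66 to 3.13, adjusted p = 0.945) and 0.53 without it, and no member was called in this comparison or in the same comparison for DIO (0.00716% and 0% of all genes). Averaged over the 3 states, the difference between particulate matter and filtered air was between -0.37 (Prf1, unadjusted p = 0.0427, adjusted p = 0.808) and 0.16 (Cd4), with 0 members and 0% of all genes called. Without T1DE3 all 10 were negative, between -0.41 (Prf1, adjusted p = 0.515) and -0.09 (Cd4). The median over the members was -0.10 with all libraries, and ranged from -0.22 without NDE3 to 0.09 without NDE1.

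The members were correlated with each other across the 18 lung libraries. The correlations given here are descriptions over libraries that share groups, without a test. Cd3e, Cd3g and Cd8a were most like each other (r of 0.95 to 0.98), Eomes was most like Prf1 (0.92) and Nkg7 (0.91), and Tbx21 most like Nkg7 (0.94) and Ccl5 (0.93). The lowest values were between Cd4 and Gzma (0.20), Eomes (0.24) and Prf1 (0.25), and without T1DE3 these were 0.19, 0.44 and 0.46. Against the mean of all 10 members r ran from 0.95 for Ccl5 and Cd8a to 0.77 for Gzma and 0.63 for Cd4.

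Outside the members, the genes most like their mean included Sh2d2a (r = 0.98), Ctsw, Cd28, Ms4a4b, Klrc1, Cd8b1, Cxcr3, Runx3 and Ptpn22 (0.95 to 0.97, 18 libraries). Without T1DE3, 8 of the first 10 were again among the 10 most alike, with Sh2d1a and Cst7 in place of Runx3 and Ptpn22. Outside the members, Cd8a was most like Cd8b1 (r = 0.99), which encodes the other chain of the CD8 coreceptor, and Cd3e most like Cd3d (0.98), a further CD3 chain. Gzma was most like Gzmb (0.97), another granzyme, and Eomes most like Klrk1 (0.94), the activating NK receptor NKG2D. The closest gene was Cd5 for Cd3g (0.98), Rhoh for Cd4 (0.91) and Fyn for Tbx21 (0.96). It was Klrc1 for Nkg7 (0.97), Ms4a4b for Ccl5 (0.94) and Klrk1 for Prf1 (0.92).

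Ratios within a library do not depend on how the library was scaled, and they set the effector genes against each other and against T cell genes. The ratio of Gzma to Prf1 was 7.87, 9.24 and 8.35 in NDC, 7.14, 8.72 and 10.3 in NDE, 7.95, 4.88 and 7.43 in DIOC, and 7.73, 7.84 and 5.30 in DIOE. It was 12.99, 8.99 and 8.04 in T1DC and 18.03, 21.5 and 14.99 in T1DE. The 3 T1DE libraries, T1DE3 included, thus had the highest ratios of the 18, with Gzma near its level in T1DC and Prf1 below it. The ratio of Gzma to Cd3e was between 2.91 and 9.43 in ND and DIO libraries, and 11.5, 8.15 and 25.4 in T1DC and 11.5, 18.2 and 4.51 in T1DE, where the high value is T1DC3 and the low one T1DE3.

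The ratio of Cd4 to Cd8a was 0.28, 0.57 and 0.29 in NDC and between 0.45 and 0.89 in DIOC and between 0.68 and 1.12 in DIOE. In NDE it was 1.17 in NDE1 but 0.35 and 0.34 in the others, and in T1DC3 it was 1.49, the highest of the 18. T1DE3 had 0.72, close to 0.67 and 0.57 in T1DE1 and T1DE2, since both coreceptors were high there. These ratios are given as values, with no test.

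**Figure D5:**
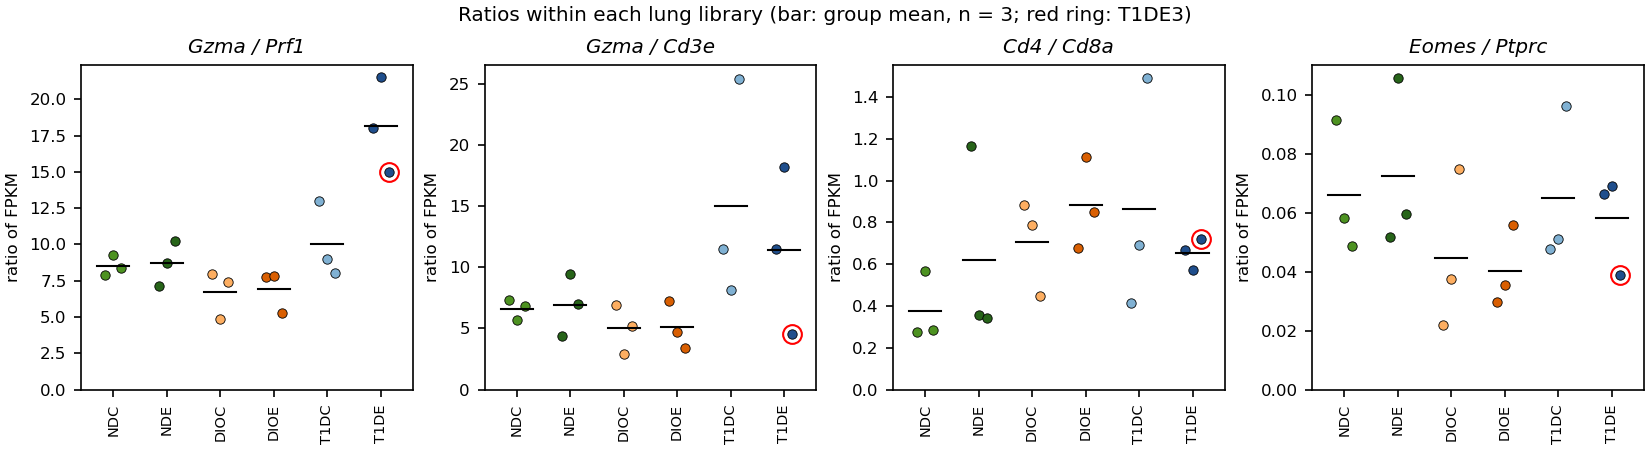
Ratios of FPKM within each of the 18 lung libraries: Gzma to Prf1, Gzma to Cd3e, Cd4 to Cd8a, and Eomes to Ptprc. Points are libraries, bars group means (n = 3), and the red ring marks T1DE3; the 3 T1DE libraries have the highest ratios of Gzma to Prf1, from 14.99 to 21.5.

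T1DC3 was the library lowest in T cell genes. It had the lowest value of the 18 for Cd3e (2.0 FPKM), Cd3g (4.36), Cd8a (1.18), Cd4 (1.76) and Ccl5 (57.5). Prf1 (6.32 FPKM) and Gzma (50.8) were nevertheless close to T1DC2 (5.85 and 52.6), and the NK receptor Ncr1 (3.81 FPKM) was above T1DC1 and T1DC2 (3.22 and 3.48). Ptprc (CD45), carried by all leukocytes, was 15.6 FPKM against 38.0 and 34.2 in the other T1DC libraries. With T1DC3 left out, 2 rather than 8 members had an unadjusted p under 0.05 with a fold over 1.5 in T1DC against NDC, and the median difference was -0.82 in place of -1.06.

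The other genes of T and NK cells were counted from lists. Of 24 further T cell genes, all were lower in T1D averaged over both airs but 1, and 2 were called, among them Icos, a costimulatory receptor (-0.81 ± 0.18, adjusted p = 0.042). Icos read 2.82, 4.62 and 4.46 FPKM in NDC and 1.39, 1.58 and 0.90 in T1DC. The median over the 24 was -0.83 in T1D and -0.58 in DIO, where 24 of 24 were lower and 0 called. For these and the lists below, 55.1% of all 13973 genes were lower in DIO and 54.7% in T1D, 0.0644% and 0.265% were called lower, and 0.129% and 0.293% were called higher.

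Of 15 NK receptor genes all were lower in both states averaged over both airs, with a median of -0.56 in DIO and -0.58 in T1D and 0 called (smallest adjusted p of 0.067 and 0.0633). Ncr1, the receptor NKp46 found chiefly on NK cells, read 2.71, 2.89 and 4.05 FPKM in NDC, 1.94, 1.42 and 1.39 in DIOC and 3.22, 3.48 and 3.81 in T1DC, so that DIOC alone was below NDC in filtered air. Ncr1 under particulate matter read 3.13, 4.09 and 3.94 in NDE, 3.16, 2.80 and 1.65 in DIOE and 1.54, 2.06 and 2.06 in T1DE, the last without overlap with NDE (-0.71 ± 0.17, adjusted p = 0.0793). Klrk1 followed Eomes, with 8.06, 7.32 and 8.84 FPKM in NDC, 3.54, 3.17 and 4.29 in DIOC and 4.38, 4.58 and 3.15 in T1DC.

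Of 14 other cytotoxic effector genes 12 were lower in DIO (median -0.52, 0 called) and 13 in T1D (median -0.29), where Cst7, an inhibitor of granule cathepsins, was called (-1.01 ± 0.22, adjusted p = 0.0396). Of 7 genes of the chemokine axis Cxcr6, a receptor of tissue-resident T cells, was called lower in T1D (-1.27 ± 0.24, 0.0225), with 9.54, 9.58 and 14.7 FPKM in NDC and 5.41, 5.98 and 1.74 in T1DC. Of 16 regulators around T-bet and Eomesodermin, of which 15 passed the filter on low values and were tested, Stat4, which relays interleukin-12, was called lower in T1D (-0.96 ± 0.21, 0.0418).

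Runx3, whose product binds RUNX letters such as those in the promoters above, read 6.28, 7.63 and 9.54 FPKM in NDC, 3.45, 4.25 and 4.31 in DIOC and 4.36, 4 and 2.39 in T1DC (differences from NDC of -0.81 and -0.96, adjusted p of 0.269 and 0.203).

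Genes of all leukocytes, too, had lower values than in ND, without a call. The summed FPKM of 5 genes of all leukocytes was 600 to 1092 in NDC, 468 to 968 in NDE, 453 to 611 in DIOC, 378 to 755 in DIOE, 247 to 596 in T1DC and 288 to 492 in T1DE, with none of the 5 at 0 in any library. Their median difference from ND averaged over both airs was -0.33 in DIO and -0.92 in T1D, and 10 B cell genes had -0.06 and -0.9993. By adjusted p 0 of either list were called, and by unadjusted p with a fold over 1.5, 4 of 5 and 10 of 10 were lower in T1D and 0 in DIO. With the mean level of the 5 genes as a covariate, the median over the members became -0.59 in DIO and -0.13 in T1D, no member was called, and Eomes was -0.76 (adjusted p = 0.0617) and -0.63 (0.373). In T1D, Gzma (0.38), Cd4 (0.24) and Cd8a (0.02) were then above ND, none called. T and NK cells carry the leukocyte genes too, so this covariate takes up part of any difference in the members. The fit therefore cannot tell a difference of T and NK cells from one of all leukocytes. This fit included T1DE3, and none with the covariate but without T1DE3 is given. In T1DE3 the ratio of Cd4 to Ptprc was 0.48, against 0.19 and 0.13 in T1DE1 and T1DE2. That of Cd8a to Ptprc was 0.67, against 0.28 and 0.22. The ratio of Eomes to Ptprc was 0.0488 to 0.0917 in NDC and 0.0517 to 0.106 in NDE, and it overlapped with that in DIOC (0.022 to 0.075), DIOE (0.0298 to 0.0558), T1DC (0.0477 to 0.0963) and T1DE (0.0388 to 0.0693).

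Transcripts of skeletal muscle and of squamous epithelium, which are not of alveolar tissue, were also unequal between the groups. The summed FPKM of 14 muscle genes was 17.97 to 463 in NDC, 20.7 to 48.0 in NDE, 15.8 to 1693 in DIOC, 584 to 1863 in DIOE, 463 to 1509 in T1DC and 37.5 to 1588 in T1DE. For 12 squamous genes it was 8.57 to 701 in NDC, 9.15 to 17.5 in NDE, 11.9 to 3245 in DIOC, 749 to 2069 in DIOE, 791 to 1630 in T1DC and 10.1 to 1053 in T1DE. Some of these markers were at 0 in the libraries where the sum was low, up to 5 of the 12 squamous genes in NDC1. With their mean level as a covariate the DIO difference of Eomes was -0.73 and no longer called (adjusted p = 0.167), while that in T1D was -0.72 (0.0353). DIOC3, T1DE1 and T1DE3 had summed levels of 15.8, 55.7 and 37.5 for muscle and 11.9, 10.1 and 19.1 for squamous genes, low like those of most ND libraries. Eomes read 1.91, 1.09 and 1.37 FPKM in them. DIOC3 was the highest DIO library for Eomes, Tbx21, Cd8a, Nkg7 and Ccl5, but not for the other members. T1DE1 was the lowest T1D library for Eomes.

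Of 7 genes of the circadian clock, 6 were called in both states averaged over both airs, 4 lower and 2 higher. Dbp, a clock output factor, differed by -2.73 in DIO and -2.70 in T1D (adjusted p of 6.41e-06 and 1.44e-05). No source used here gives the hour of tissue collection, so that it cannot be told apart from the metabolic state. Of 12 interferon-stimulated genes 1 was called higher in T1D (Ifi44, 0.83 ± 0.14, adjusted p = 0.014), and their summed FPKM was 250 to 882 in T1DC, with T1DC3 the highest, against 184 to 267 in NDC. Of 7 glucocorticoid-induced genes Fkbp5 (1.48 ± 0.29, adjusted p = 0.0253) and Zbtb16 (1.51 ± 0.32, 0.0348) were called higher in T1D. The part of the leukocyte, muscle, squamous, clock, interferon and glucocorticoid genes in the differences of the members was not tested beyond the covariates given.

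In the liver 9 of the 10 members were at 2.33 FPKM or less, and Ccl5 was detected in all 18 libraries at 2.67 FPKM or more. Only Cd3g, Gzma, Nkg7 and Ccl5 reached 1 FPKM in 3 libraries and could be tested there, and for Eomes the highest value of 0.19 FPKM corresponds to about 12.8 fragments. Gzma read 1.44, 1.85 and 2.22 FPKM in liver T1DE against 0.32, 0.32 and 1.62 in NDE, and was called higher (0.76 ± 0.27, adjusted p = 0.0407), where 8.25% of all genes were called higher. The groups overlapped, and the call was lost with median-ratio scaling, with quantile scaling, without the filter on low values, and without any of NDE1, NDE2, T1DE1, T1DE2 or T1DE3. Without NDE3, 2 of the 4 members were called. In that comparison the median of all genes was itself at 0.23 as deposited and at 0.02 after median-ratio scaling, which lowered the median of the 4 members from 0.45 to 0.28. No other member was called in that comparison, and none in NDE against NDC (0.00925% of all genes called), DIOE against DIOC (0%), T1DE against T1DC (0.916%), DIOC against NDC (1.51%), T1DC against NDC (5.21%) or DIOE against NDE (0.999%). Ccl5 read 12.6, 20.2 and 4.14 FPKM in NDC liver, a range that overlapped with that of every other liver group but DIOE.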

How the data were processed

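Lung and liver RNA was extracted by the authors with TRIzol and its poly-A fraction read on BGISEQ-500. Reads were cleaned with SOAPnuke and aligned with Bowtie2 (GRCm38), and RSEM gave gene levels. The deposited files hold FPKM per gene and library, computed by the authors and written to 2 decimals. The sources used here name no tool versions, annotation release or strand setting. The study's methods give 3 mice per group. Groups came from the sample labels, which do not say whether lung and liver of one number are from one mouse.

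Tests were run on log2(FPKM + 1), which understates the change of low genes, for genes that reached 1 FPKM in 3 libraries of the tissue (13973 in lung, 10806 in liver). Limma 3.58.1 in R 4.3.3 fitted 6 group means with a variance trend, and two-sided p-values were adjusted per comparison after Benjamini and Hochberg. Calls required an adjusted p below 0.05 and more than 1.5-fold of FPKM + 1, the authors' thresholds, although they used DEGseq. All 10 members passed the lung filter. The smallest exact p for 3 against 3 libraries is 0.1, so single genes were not tested by permutation. Counts were not used here. Depth was derived from the steps between low FPKM values, with transcripts shortened by 50 bases. The fit was tested on simulated data.

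The members, lists and comparisons were chosen with earlier results of these data known. Named genes are the members, up to 4 genes per list with the smallest p over the 4 comparisons of a state with ND within an air, the genes most like the members, and Ptprc. Some genes that this rule selects are left out of the text. The alternatives changed the pseudocount (0.1), the filter, the scaling (median-ratio, quantile), the libraries fitted, the block, the fold and p thresholds, or added marker scores as covariates. The thymus covariate, the shared fit without T1DE3 and the overlap counts with a library left out were added after the data were seen. The cut at 5 of the 6 ND libraries was likewise not set in advance. Promoters are from RefSeq. Ratios and figures were made with Python 3.11.15 and matplotlib 3.10.9.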

Additional observations from a re-analysis of the deposited data

How the results depend on the processing

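In all, 1954 alternative values were computed for 114 results, of which 36 values of single genes turned direction, none of them for a gene called with all libraries. The Eomes differences kept their sign under every alternative run, between -1.16 and -0.73 in DIO and between -1.10 and -0.63 in T1D averaged over both airs, with adjusted p of 0.000304 to 0.167 and of 0.000646 to 0.373. Members called in these comparisons, 1 in each, became 0 and 0 in a fit on the compared groups alone (Eomes adjusted p of 0.0936 and 0.0554), 0 and 0 with the leukocyte covariate, 0 in DIO with the muscle and squamous covariate, and 5 in T1D with the thymus covariate (Cd3e, Cd3g, Cd8a, Eomes and Prf1). Leaving out 1 library gave 0 to 6 called in DIO (6 without NDE1, 2 without DIOC3), 0 to 5 in T1D (5 without NDE1, 4 without T1DE3), 0 to 1 in DIOC against NDC and 0 to 2 in T1DE against NDE. By unadjusted p 1 member passed in T1DE against T1DC, 5 in DIOC against NDC, 8 in T1DC against NDC, 6 in DIOE against NDE, 2 in T1DE against NDE, and 8 in DIO and 7 in T1D averaged over both airs. The causes of these changes were not tested.

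The fits with the leukocyte covariate included T1DE3, and the covariate takes up part of any difference in the members, since T and NK cells carry its genes. With the leukocyte covariate the median over members became -0.38 in T1DC against NDC, 0.11 in T1DE against NDE and -0.13 in T1D averaged over both airs. It turned the sign of Cd3g (0.059) and Cd4 (0.26) in DIOC against NDC, of Cd4 (0.0085) and Gzma (0.28) in T1DC against NDC, of Cd3e (0.10), Cd3g (0.12), Cd8a (0.51), Cd4 (0.48), Tbx21 (0.20) and Gzma (0.47) in T1DE against NDE, of Cd4 in DIO (0.017), of Cd8a (0.015), Cd4 (0.24) and Gzma (0.38) in T1D, and of Nkg7 (0.10) in T1DE against T1DC. In T1DE against T1DC the thymus covariate gave Cd3e -0.16, Cd3g -0.14, Cd8a -0.046, Cd4 -0.14 and Gzma -0.090, and the muscle and squamous covariate Gzma -0.034. With single libraries left out that comparison ranged from -0.15 to 0.65 for Cd3e, -0.10 to 0.81 for Cd3g, -0.011 to 1.13 for Cd8a, -0.15 to 0.99 for Cd4, -0.11 to 0.23 for Gzma and -0.35 to 0.12 for Nkg7, and T1DE against NDE from -0.94 to 0.21 for Cd4, -0.79 to 0.30 for Gzma and -0.84 to 0.095 for Tbx21.

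In the liver only 4 members were tested, and medians over them followed the settings. With a pseudocount of 0.1 they were -0.92 in NDE against NDC, -0.86 in DIOE against DIOC, 0.70 in T1DE against NDE and, for lung against liver, 4.74, the latter 2.85 and 2.23 under median-ratio and quantile scaling. Without the filter, which admits all 10 members, they were -0.21, -0.049 and 0.021 in the same 3 liver comparisons, and 0.19 in T1DE against NDE under quantile scaling. The 1 member called in T1DE against NDE became 0 with no filter, with median-ratio and with quantile scaling, and 0 to 2 with single libraries left out. Those medians then ranged from -0.77 to -0.24 in NDE against NDC, -0.50 to -0.12 in DIOC against NDC, -0.39 to -0.047 in T1DC against NDC, -0.42 to 0.045 in DIOE against NDE, 0.17 to 0.87 in T1DE against NDE and -0.088 to 0.31 in T1DE against T1DC.

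Labels number the replicates, but nothing says what a number shares between groups. Same-numbered lung libraries did not deviate together (mean r of 0.04 over 45 pairs, from -0.60 to 0.76, against -0.02 over 90 pairs of other numbers), and the fit with a replicate block called 1 member in DIO and 1 in T1D averaged over both airs, Eomes in each (adjusted p of 0.0309 and 0.0291).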
